A study of Mus musculus with 574 samples.

Results

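The 32 genes described here encode factors that build ribosomes, and they were followed in granulocyte/macrophage progenitors (GMPs) sorted from mice during recovery from 5-fluorouracil (5-FU). They were chosen by name, with earlier results of these data known. The rows of 32 listed symbols were taken out of 46078 gene rows, in cells with 50000 or more reads in genes and 1000 or more genes detected. All 32 were found, and all 32 were among the 15145 genes with enough reads to be tested. On day 8 every member stood higher than on day 0 in both sets of cells, as did 43.6% of all tested genes. The members' summed share of gene reads went from 0.386% to 0.751% and 0.637% on day 8. It was 0.539% at day 10, 0.467% at day 12 and 0.295% on day 14. Of the 32, 6 passed the main test as higher on day 8, where 2.61% of all genes did. An alternative test called 4 members, and no gene passed when every cell was thinned to 50000 reads.

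Ribosomes are assembled in the nucleolus, where RNA polymerase I copies the ribosomal DNA into a long precursor RNA. Small nucleolar RNA-protein particles (snoRNPs) modify this precursor: box C/D particles methylate it and box H/ACA particles turn uridines into pseudouridines. Assembly factors then fold and cut it into the RNAs of the small and the large subunit, and further factors carry the particles to the cytoplasm and finish them. The pathway is a well-known target of the transcription factor Myc and is active in growing progenitors. GMPs are such progenitors and give rise to neutrophils and monocytes. 5-FU blocks thymidylate synthase, kills dividing cells and is also built into RNA, where it is known to disturb the processing of ribosomal RNA.

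The mice were C57Bl/6 animals of 6 to 12 weeks. Cells were studied on days 0, 8, 10, 12 and 14 after 150 mg/kg 5-FU, and all 5 groups carry 5-FU as their treatment label. Whether the day 0 mice were injected with 5-FU, with PBS or with nothing is not given in the sources used here, nor is the number of mice behind a set or whether cells of several mice were pooled. Single cells free of lineage markers and Sca-1 but positive for c-Kit, CD34 and FcγR were sorted 1 to a well and sequenced by Smart-seq2, a full-length method that counts reads and not molecules. There is 1 set of cells on each day except day 8, which has 2 sets. Of 573 cells, 500 passed the filter: 92 on day 0, 90 and 93 on day 8, 93 at day 10, 85 at day 12 and 47 on day 14.

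Depth and RNA content differed between the sets. The median kept cell had 145093 gene reads on day 0, 289939 and 214717 on day 8, 224022 at day 10, 158578 at day 12 and 79451 on day 14. Slc34a2 and CT010467.1, a pair of loci with very many reads, took a median of 19.3 to 24.5% of reads per cell on days 0 to 12 and 36.7% on day 14. Xist stood at 182 and 157 CPM (counts of a gene per 1000000 gene reads of its set) on days 0 and 12 and at or under 1.79 CPM in the other sets, while the Y-linked gene Eif2s3y stood at 0.790 and 1.11 CPM against 56.9 to 84.4 CPM. Day 12 against day 0 and day 10 against day 8 thus compare sets alike in these genes, while in the other comparisons day cannot be told apart from sex. In none can it be told apart from plate or bone preparation. All 9 GMP genes looked at, among them Kit, Cd34, Mpo and Elane, had reads in every set, but their level differed. They summed to 83630 CPM on day 0, 40020 and 31140 CPM in the day 8 sets and 64160 to 84120 CPM later. On day 8 the main test called 3 of the 9 lower and 0 higher, where 3.02% of all genes were called lower. Of the 9, 7 had a fold change below 0 and 2 above. The 2 day 8 sets give the only estimate of spread between sets, and they may be technical replicates, so a p-value here reflects their spread alone.

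Promoters of the members were searched for the hexamer CACGTG, an E-box that Myc and its partner Max can bind. RefSeq promoter windows of 300 bases (250 before the start of the gene and 50 from it, GRCm38.p6) were held for 28 of the 32 members, and none was held for Npm1, Fbl, Bop1 or Rrp12. The hexamer, which reads the same on both strands, was in a window of 8 of the 28 (28.6%): Rrn3, Mybbp1a, Wdr43, Utp20, Tsr1, Ltv1, Pes1 and Nop2. It was in 11.7% of 9415 tested protein-coding genes with a window, in 17.1% of 76 other ribosome biogenesis genes and in 7.2% of all 32851 windows. A match describes letters and is not a bound site. The windows below are written 5′ to 3′ with the hexamer in capitals. Tsr1 is shown because it had the largest fold change on day 8, Rrn3 because it alone among the members held the hexamer at 2 places while its level hardly differed, and Nolc1 because it rose without it.
Tsr1, chr11:74897830-74898129, plus strand: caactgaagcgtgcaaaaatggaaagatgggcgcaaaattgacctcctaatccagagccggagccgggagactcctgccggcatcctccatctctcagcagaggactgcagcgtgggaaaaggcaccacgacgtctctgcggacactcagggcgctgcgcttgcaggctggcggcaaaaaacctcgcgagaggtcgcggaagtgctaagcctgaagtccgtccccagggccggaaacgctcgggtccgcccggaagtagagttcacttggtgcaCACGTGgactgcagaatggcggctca
Rrn3, chr16:13780449-13780748, plus strand: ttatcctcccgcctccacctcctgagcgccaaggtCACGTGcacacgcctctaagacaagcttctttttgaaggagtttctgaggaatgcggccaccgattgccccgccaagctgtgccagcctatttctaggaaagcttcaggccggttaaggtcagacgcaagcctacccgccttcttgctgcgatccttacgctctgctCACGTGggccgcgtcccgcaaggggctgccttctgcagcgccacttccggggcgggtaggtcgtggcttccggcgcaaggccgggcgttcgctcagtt
Nolc1, chr19:46075597-46075896, plus strand: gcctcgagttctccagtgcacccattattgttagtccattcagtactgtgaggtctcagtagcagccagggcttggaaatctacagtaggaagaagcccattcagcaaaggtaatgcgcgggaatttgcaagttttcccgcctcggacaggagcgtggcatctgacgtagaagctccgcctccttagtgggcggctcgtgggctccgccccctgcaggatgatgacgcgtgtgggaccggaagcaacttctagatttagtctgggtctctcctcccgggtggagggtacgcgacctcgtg
Of the 6 members that rose on day 8, 5 had a window and Tsr1 alone among these held the hexamer. Several members are also hosts of snoRNA genes, which are known to be cut from introns. A snoRNA gene lay inside 7 of the 32 (21.9%), namely Ncl, Nop56, Nop58, Wdr43, Gnl3, Dkc1 and Tsr1, which together hold 21 such genes, against 1.84% of 11876 tested protein-coding genes. No test was made of either share.

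Summed over the members, the level was highest on day 8 and then lower at each later day. The sum stood at 3859 CPM on day 0, at 7514 and 6374 CPM in the first and second day 8 set, at 5394 CPM at day 10, at 4666 CPM at day 12 and at 2947 CPM by day 14. Relative to day 0 these are log2 values of 0.84 on day 8 (SD of the 2 sets 0.17), 0.48 at day 10, 0.27 at day 12 and −0.39 on day 14. The sum itself was not tested. A higher level in each cell and a larger share of cells with a high level cannot be told apart in such sums.

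The most abundant members did not set the sum alone. Ncl and Npm1 gave 33 to 41.8% of the members' reads, and without them the log2 value on day 8 was 0.735. Counted per read of the added spike-in RNA, whose amount per well is not given in the sources used here, the members stood at 0.157 on day 0, 0.598 and 0.462 on day 8, 0.330 at day 10, 0.202 at day 12 and 0.108 on day 14. On that scale the log2 values were 1.74 on day 8 and 1.07 on day 10. The day 14 value depended on scale: it was −0.101 without Slc34a2 and CT010467.1 in the totals and −0.0967 with TMM factors, which correct for such dominant loci. Over all tested genes the median CPM by day 14 over that on day 0 was −0.27 (log2), and TMM scaling brought this to 0.02.

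**Figure D1:**
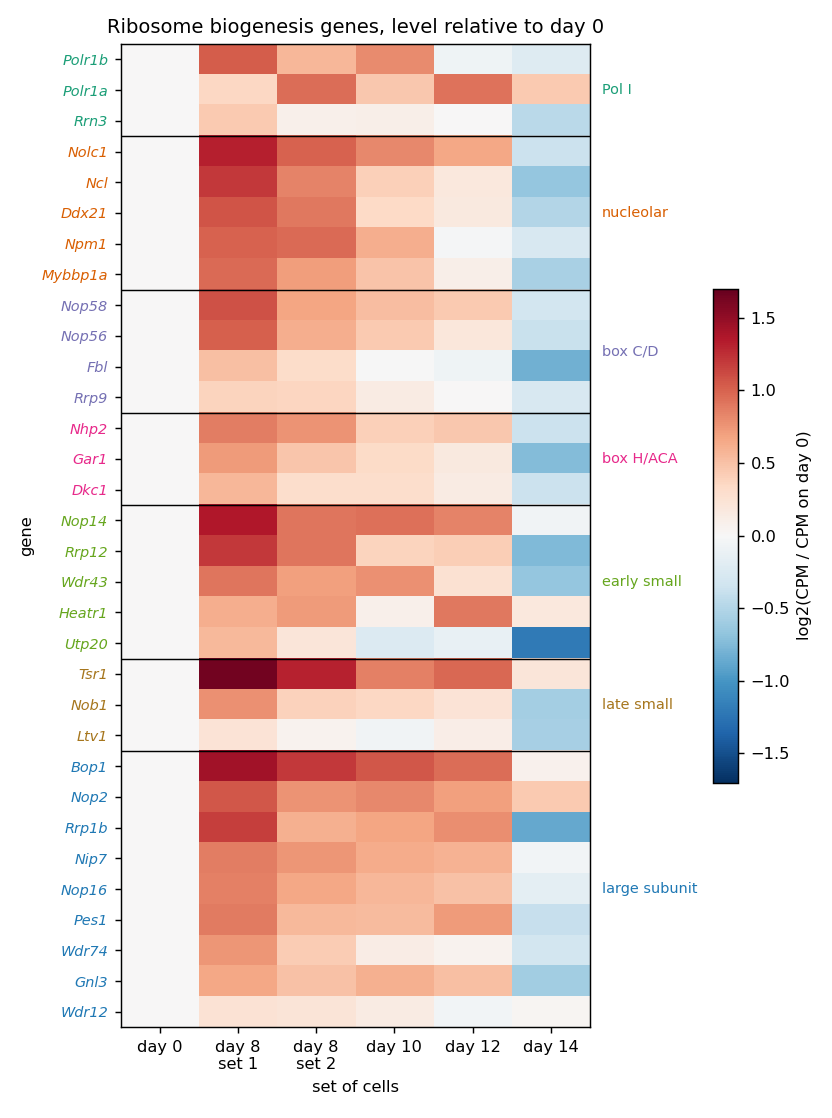
Level of each of the 32 genes in the 6 sets, as log2 of its CPM over its CPM on day 0 (colour scale, day 0 is 0 by construction), with genes grouped by role and ordered within a role by fold change on day 8. Both day 8 columns lie above day 0 for all 32 genes, and the day 14 column lies below day 0 for all but 6. Of all tested genes, 43.6% lay above day 0 in both day 8 sets and 33.6% on day 14.

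For day 8 against day 0, edgeR's quasi-likelihood test with Benjamini-Hochberg adjustment over all 15145 genes called 6 of the 32 members higher (18.8%) and 0 lower, where 2.61% of all genes were called higher and 3.02% lower. The 6 were Tsr1, Bop1, Nolc1, Nop14, Ncl and Ddx21. At an unadjusted p under 0.05, 19 members were higher and 0 lower. The share of all genes under that unadjusted threshold was not counted, here or for the later days, so such counts have no background beside them. All 32 log2 fold changes were above 0, from 0.07 to 1.40 with a median of 0.72, against a median of 0.01 over all genes, of which 50.7% were above 0. In both day 8 sets 32 of 32 members stood above day 0, as did 43.6% of all tested genes, and 20 of 32 stood above every other set, as did 17.8% of all tested genes. The first day 8 set stood above the second for 30 of 32 members against 49.1% of all tested genes. Polr1a and Heatr1 were the exceptions, and the first set was also the deeper of the 2.

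The number called depended on how cells were treated. DESeq2's Wald test on the same sums called 4 members and 363 of 15145 genes, against 853 genes by edgeR. Cells with 200000 or more reads and 2000 or more genes gave 10 members and 708 of 14621 genes. When every cell was thinned to 50000 reads before summing, no member passed and none of the 13213 genes tested did, and the log2 values of the 6 were 1.12 for Bop1, 0.92 for Ncl and Nolc1, 0.80 for Ddx21, 0.76 for Tsr1 and 0.45 for Nop14. The prior degrees of freedom of that fit were 1.87 against 50.9 with all reads.

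**Figure D2:**
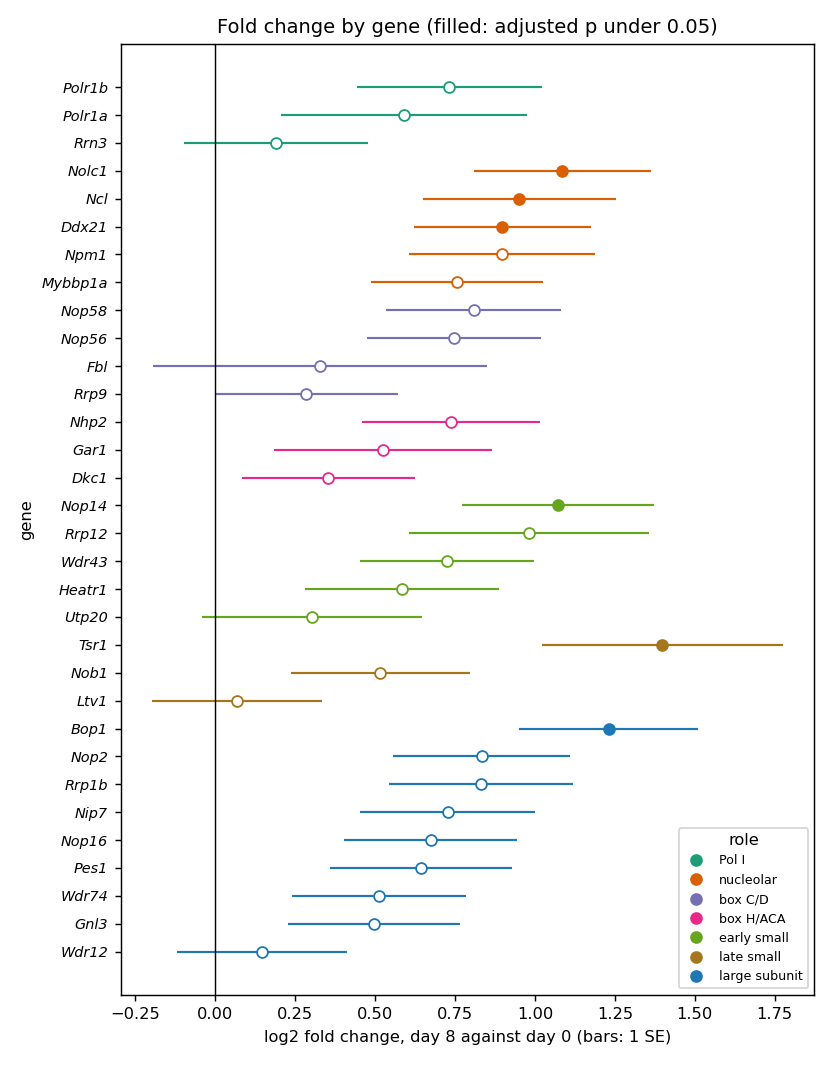
Log2 fold change of each member on day 8 against day 0, with bars of 1 SE from the fit to the summed sets, coloured by role. Filled points are the 6 members with an adjusted p under 0.05, and all 32 points lie to the right of 0.

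Of the RNA polymerase I factors, none of 3 passed on day 8. Polr1b encodes the second largest subunit of the polymerase and stood at 39.7 CPM on day 0, 80.9 and 59.02 CPM in the day 8 sets, 69.5 CPM at day 10, 37.8 CPM at day 12 and 34.2 CPM by day 14 (day 8 log2 fold change 0.73, SE 0.29, adjusted p = 0.133). Both day 8 sets and day 10 were above the other days. Polr1a, which encodes the largest subunit, had few reads and stood at 13.6 CPM on day 0, 17.4 and 26.2 CPM in the day 8 sets, and 18.6, 25.9 and 18.6 CPM on days 10, 12 and 14 (0.59, SE 0.38). Rrn3, which brings the polymerase to the ribosomal DNA promoter, stood at 46.1 CPM on day 0, 62.6 and 48.8 CPM in the day 8 sets, 49.5 and 46.1 CPM on days 10 and 12 and 33.4 CPM by day 14 (0.19, SE 0.29, adjusted p = 0.777). Its fold change was −0.07 in the cells with the most reads.

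The 5 nucleolar proteins of broad function held 3 of the 6 calls. Ncl encodes nucleolin, an abundant binder of precursor RNA, and stood at 861 CPM on day 0, 1979 and 1549 CPM in the day 8 sets, 1144 CPM at day 10, 974 CPM at day 12 and 548 CPM by day 14. Its day 8 sets lay above all other sets, and it rose by 0.95 (log2, SE 0.30, adjusted p = 0.048), close to the threshold. With DESeq2 size factors its adjusted p was 0.053, and in cells with 200000 or more reads 0.0556. Nolc1 encodes a nucleolar scaffold and chaperone of snoRNPs and went from 99.4 CPM to 248 and 199 CPM, then to 175, 158 and 77.3 CPM on days 10, 12 and 14. It rose by 1.09 (SE 0.28, adjusted p = 0.0105). Ddx21, an RNA helicase gene, stood at 76.1 CPM on day 0, 159 and 142 CPM in the day 8 sets, 95.85 and 85.7 CPM on days 10 and 12 and 54.02 CPM by day 14, and rose by 0.90 (SE 0.28, adjusted p = 0.0404). By the Wald test its adjusted p was 0.0623, and with no gene filter 0.0711. Npm1, which encodes the histone and ribosome chaperone nucleophosmin, stood at 572 CPM on day 0, 1147 and 1112 CPM in the day 8 sets, 879 CPM at day 10, 566 CPM at day 12 and 475 CPM by day 14. Its fold change of 0.90 (SE 0.29) missed the threshold at an adjusted p of 0.0557 and passed it by the Wald test, at 0.0133. Its near-identical pseudogene Gm5611 had 3.50 to 9.71 CPM. Mybbp1a, a nucleolar partner of polymerase I, stood at 151 CPM against 293 and 247 CPM (0.76, SE 0.27, adjusted p = 0.0899).

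None of the 4 box C/D members passed. Nop58 and Nop56 encode the paired scaffold proteins of these particles. Nop58 stood at 129 CPM on day 0, 273 and 205 CPM in the day 8 sets, 186 and 175 CPM on days 10 and 12 and 104 CPM by day 14 (0.81, SE 0.27, adjusted p = 0.0713). Nop56 stood at 144 CPM on day 0, 291 and 222 CPM in the day 8 sets, 197 and 164 CPM on days 10 and 12 and 111 CPM by day 14 (0.75, SE 0.27, adjusted p = 0.0990). Exons of Nop56 overlap those of Idh3b, which had up to 228 CPM, and reads were not stranded, so part of its count is uncertain, and its processed pseudogene Gm27219 had 12.9 to 37.9 CPM. Rrp9 belongs to the U3 particle and stood at 43.02 CPM against 55.7 and 55.5 CPM (0.29, SE 0.29). Fbl encodes fibrillarin, the methyltransferase of these particles. It was listed at only 8.32 CPM on day 0 and 11.9 and 10.3 CPM in the day 8 sets (0.33, SE 0.52), and transcripts of the pseudogene Gm5812 and of Tulp4 hold near-identical stretches. Gm5812 had 0 reads in every set and Tulp4 had 8.73 to 21.4 CPM, above Fbl in all sets but the first of day 8. How the authors' counting shared reads between such copies is not given in the sources used here.

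None of the 3 box H/ACA members passed. Nhp2 encodes a core protein of these particles and stood at 272 CPM on day 0, 499 and 462 CPM in the day 8 sets, 361 and 372 CPM on days 10 and 12 and 212 CPM by day 14 (0.74, SE 0.28, adjusted p = 0.114). Divided by the length of its merged exons it was the most abundant member on day 0, at 237 CPM per kb, ahead of Npm1 at 215 and Ncl at 84.5 CPM per kb, with Polr1a lowest at 1.15 CPM per kb. Dkc1 encodes dyskerin, the pseudouridine synthase, lies on chromosome X and stood at 230 CPM on day 0, 340 and 283 CPM in the day 8 sets, 283 and 254 CPM on days 10 and 12 and 179 CPM by day 14 (0.35, SE 0.27). Gar1, another core protein gene, stood at 23.1 CPM against 38.2 and 32.2 CPM (0.52, SE 0.34).

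Of the 5 members of the early small-subunit particle, Nop14 rose. It stood at 29.1 CPM on day 0, 74.7 and 54.9 CPM in the day 8 sets, 55.6 and 52.2 CPM on days 10 and 12 and 28.04 CPM by day 14 (1.07, SE 0.30, adjusted p = 0.0227). Days 8, 10 and 12 all stood well above days 0 and 14. By the Wald test its adjusted p was 0.0829, and with thinned cells its log2 value was 0.45. Rrp12, a maturation and export factor known from yeast, stood at 15.7 CPM on day 0 and 36.1 and 29.5 CPM in the day 8 sets, and had 9.28 CPM by day 14 (0.98, SE 0.37, adjusted p = 0.118). Wdr43 stood at 101 CPM on day 0, 190 and 164 CPM in the day 8 sets, 174 CPM at day 10, 120.5 CPM at day 12 and 64.3 CPM by day 14 (0.72, SE 0.27, adjusted p = 0.111). Heatr1 was the only member highest on day 12, at 51.8 CPM, with 27.8 CPM on day 0 and 42.6 and 45.7 CPM in the day 8 sets (0.58, SE 0.30). Utp20 stood at 26.6 CPM on day 0, 38.9 and 30.7 CPM in the day 8 sets and 11.55 CPM by day 14 (0.30, SE 0.34).

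The late small-subunit factors held the member with the largest fold change. Tsr1, which encodes a GTPase-like factor of late small-subunit particles, stood at 12.2 CPM on day 0, 37.9 and 30.02 CPM in the day 8 sets, 21.9 and 23.8 CPM on days 10 and 12 and 14.0 CPM by day 14, and rose by 1.40 (SE 0.38, adjusted p = 0.0166). Its day 0 value rests on 200 reads, its adjusted p by the Wald test was 0.0520, and its log2 value in thinned cells was 0.76. Its exons overlap those of Srr, which had at most 7.39 CPM. Nob1, which encodes the endonuclease that makes the end of the small-subunit RNA, stood at 50.9 CPM against 87.3 and 67.05 CPM (0.52, SE 0.28). Ltv1, a late assembly factor, hardly differed, with 107 CPM on day 0, 126 and 112 CPM in the day 8 sets, 103 and 116 CPM on days 10 and 12 and 72.2 CPM by day 14 (0.07, SE 0.27). Its fold change was −0.02 without the first day 8 set and −0.15 in the cells with the most reads.

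Of the 9 large-subunit members, Bop1 rose. Bop1, Pes1 and Wdr12 encode a complex that processes the large-subunit RNA, and each is given in turn. Bop1 went from 67.8 CPM on day 0 to 182 and 155 CPM in the day 8 sets, 140 and 131 CPM on days 10 and 12 and 71.6 CPM by day 14 (1.23, SE 0.28, adjusted p = 0.0036). It passed under every alternative that gave a test except thinned cells, as did Nolc1. Pes1 stood at 39.1 CPM on day 0, 71.9 and 57.4 CPM in the day 8 sets, 56.6 and 64.5 CPM on days 10 and 12 and 29.9 CPM by day 14 (0.64, SE 0.29, adjusted p = 0.197). Wdr12 stood at 106 CPM on day 0, 126 and 123 CPM in the day 8 sets and 103 to 117 CPM later (0.15, SE 0.26). Both Pes1 and Wdr12 have near-identical processed pseudogenes, and Gm4879, the copy of Wdr12, had 25.8 to 46.7 CPM, so these counts are uncertain. The difference between Bop1 and Wdr12 was not tested.

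The other large-subunit members did not pass on day 8. Nop2, an RNA methyltransferase gene, stood at 59.2 CPM on day 0, 123 and 101 CPM in the day 8 sets, 104 and 95.85 CPM on days 10 and 12 and 80.6 CPM by day 14 (0.83, SE 0.28, adjusted p = 0.0646). Rrp1b stood at 45.03 CPM on day 0, 101 and 68.4 CPM in the day 8 sets, 71.7 and 78.03 CPM on days 10 and 12 and 24.7 CPM by day 14. Its fold change on day 8 was 0.83 (SE 0.29, adjusted p = 0.0794), and 0.52 without the first day 8 set. Nip7 stood at 64.6 CPM against 118 and 108 CPM (0.73, SE 0.27, adjusted p = 0.113), and Nop16 at 101 CPM against 182 and 159 CPM (0.67, SE 0.27, adjusted p = 0.143). Gnl3, which encodes the GTPase nucleostemin, stood at 195 CPM on day 0, 276 to 307 CPM on days 8 to 12 and 129 CPM by day 14 (0.50, SE 0.27), and its exons overlap those of Pbrm1, which had up to 139 CPM. Exons of Dkc1, Nhp2 and Mybbp1a likewise overlap Mpp1, Rmnd5b and Spns2, which had up to 92.2, 75.7 and 44.6 CPM. Wdr74 stood at 103 CPM against 174 and 139 CPM (0.51, SE 0.27).

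After day 8 most members had lower levels at each later day, and none passed the test against day 0. For day 10 against day 0 edgeR called 0 of 32 members, where 0.687% of all genes were called higher and 0.746% lower. The median log2 fold change was 0.44 against 0.00 for all genes. Of the 32 members 29 were above 0, where 50.1% of all genes were, and 9 were higher at an unadjusted p under 0.05. Bop1 had the largest value, 1.04 (SE 0.31, adjusted p = 0.0755), and passed without the cell filter at an adjusted p of 0.0491. For day 12 against day 0, 0 members were called (0.066% of all genes higher, 0.106% lower), with a median of 0.25, 27 of 32 above 0 and 9 higher at an unadjusted p under 0.05. Tsr1 at 0.98 (SE 0.41) and Bop1 at 0.95 (SE 0.31) were furthest from 0. DESeq2's Wald test called 0 members in these comparisons and in the later ones. Compared with the day 8 sets directly, 0 members were called on day 10 (0.482% of all genes higher, 0.31% lower). Of the 32, 29 lay below 0 with a median of −0.18, where 47.9% of all genes lay above 0. A single member, Ddx21, was lower at an unadjusted p under 0.05 (−0.57, SE 0.27). Day 12 against day 10 gave 0 calls (0.211% and 0.337% of all genes) and a median of −0.08. Here Heatr1 (0.83, SE 0.34) was higher and Polr1b (−0.86, SE 0.325) lower at an unadjusted p under 0.05.

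On day 14 most members were below their day 0 level by CPM, less so with TMM scaling. By CPM 26 of 32 were below day 0 and 6 above it, where 33.6% of all tested genes were above it. Day 14 was the lowest of all sets for 26 members, as it was for 44.7% of all tested genes. With TMM scaling 12 members were above day 0 and 20 below, with a median of −0.07, where 49.7% of all genes were above day 0. EdgeR called 0 members against day 0 (0.858% of all genes higher, 0.72% lower). At an unadjusted p under 0.05, Nop2 was higher (0.74, SE 0.32) and Utp20 lower (−0.91, SE 0.43). Against day 12, Rrp1b fell by 1.37 (SE 0.34, adjusted p = 0.0146), the only member called, where 1.97% of all genes were called higher and 1.25% lower. The median was −0.44, and 27 of 32 were below 0, where 47.9% of all genes were above 0. At an unadjusted p under 0.05, 4 members were lower. The Wald test did not call Rrp1b (adjusted p = 0.0882). The day 14 set held 4849678 reads, against 16457271 or more in the others, and Rrp1b had 120 of them.

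Other genes of the pathway were also higher on day 8. Of 87 other ribosome biogenesis genes tested, edgeR called 11 higher and 0 lower on day 8, where 2.61% of all genes were called higher. Their median log2 fold change was 0.57, and 83 of 87 were above 0, where 50.7% of all genes were. Nol10 had 5.35 CPM at day 0 and 20.5 and 20.8 CPM at day 8 (1.86, SE 0.47, adjusted p = 0.0101). Ddx10, a helicase gene, had 27.65 CPM at day 0 and 83.1 and 59.02 CPM at day 8 (1.28, SE 0.31, adjusted p = 0.00632). Pno1, a late small-subunit factor, had 56.5 CPM at day 0 and 137 and 136 CPM at day 8 (1.19, SE 0.28, adjusted p = 0.00499). Wdr36 of the early small-subunit particle went from 47.8 CPM to 128 and 92.2 CPM (1.12, SE 0.29), and the kinase gene Riok1 from 26.6 CPM to 73.96 and 46.7 CPM (1.10, SE 0.32). The other 6 called were Tcof1 and Ubtf, both factors of RNA polymerase I transcription, with Wdr3, Lyar, Wdr18 and Mrto4, at 0.89 to 1.0. At later days 0 of the 87 passed against day 0, with medians of 0.41, 0.27 and 0.10 on days 10, 12 and 14. Noc3l, named after its value was seen, fell by 2.25 on day 10 against day 8 (SE 0.57, adjusted p = 0.0392), from 10.5 and 15.2 CPM to 2.56 CPM.

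Myc itself stood at 278 CPM on day 0, 519 and 413 CPM in the day 8 sets, 329 and 333 CPM on days 10 and 12 and 252 CPM by day 14, and did not pass on day 8 (0.66, SE 0.28, adjusted p = 0.170). Its order over the sets was that of the members' sum except between days 10 and 12. Odc1, the ornithine decarboxylase gene and a textbook target of Myc, went from 30.1 CPM to 88.2 and 94.2 CPM in the day 8 sets and 78 CPM at day 10, and rose on both days (1.51, SE 0.29, adjusted p = 0.000465, and 1.37, SE 0.32, adjusted p = 0.0124). Max, the partner of Myc, stood at 14.1 CPM on day 0 and 24.7 and 36.2 CPM in the day 8 sets (1.02, SE 0.36, adjusted p = 0.0863). Mycn was at or under 1.65 CPM in every set.

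**Figure D3:**
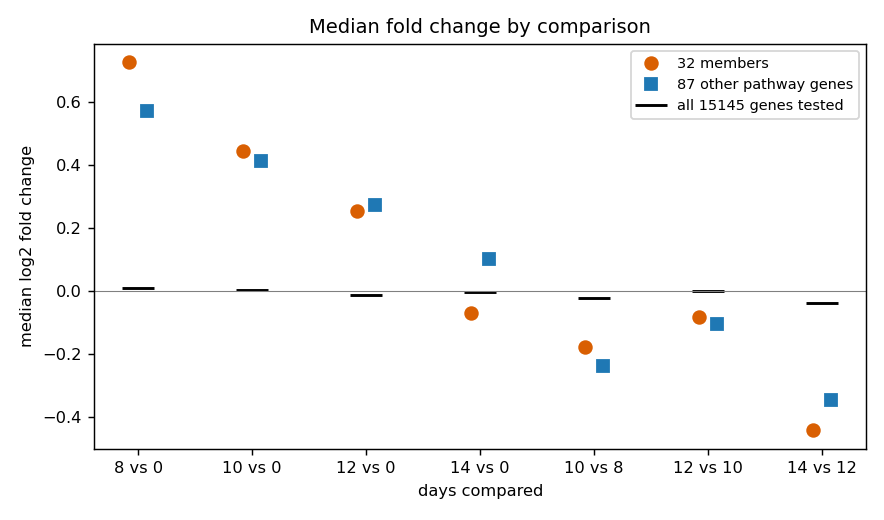
Median log2 fold change of the 32 members (circles), of the 87 other pathway genes (squares) and of all 15145 genes tested (dashes) in the 7 comparisons of days. Both gene groups stand highest for day 8 against day 0, at 0.72 and 0.57, and lowest for day 14 against day 12, while the median of all genes stays between −0.04 and 0.01.

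Summed levels of lineage gene lists also differed between the sets. Such sums cannot tell a level per cell from a share of cells, and the part of cell composition in the members' change was not tested. The summed level of 13 monocyte genes was 7831 CPM on day 0, 2360 and 1421 CPM in the day 8 sets, 3053 CPM on day 10 and 6569 and 6502 CPM on days 12 and 14. The 11 granule genes stood at 86770 CPM on day 0, 43920 and 34520 CPM in the day 8 sets and 66700 to 89880 CPM later, and the 17 stem and progenitor genes at 736 CPM on day 0, 1673 and 2159 CPM in the day 8 sets, 1340 CPM on day 10 and 668 to 847 CPM later. The replication genes, 25 in number, stood at 3645 CPM on day 0, 4709 to 5528 CPM on days 8 and 10, 4418 CPM at day 12 and 2809 CPM by day 14. Mitosis genes stood within 1796 to 2471 CPM in all sets. On day 8 edgeR called 8 of 13 monocyte genes and 5 of 11 granule genes lower (3.02% of all genes). It called 7 of 16 stem and progenitor genes and 4 of 25 replication genes higher (2.61% of all genes). Of the 16 stem and progenitor genes, 13 had a log2 fold change above 0 and 3 below. Ifitm1 went from 39.6 CPM on day 0 to 466 and 862 CPM in the day 8 sets, while Meis1 stood at 45.2 CPM against 40.8 and 50.1 CPM. Malat1, a nuclear RNA that moves with RNA quality, stood at 455 CPM on day 0, 183 and 279 CPM in the day 8 sets, 202 CPM on day 10 and 299 to 311 CPM later. It fell on day 8 by 1.06 (SE 0.27, adjusted p = 0.00905 by edgeR), and Neat1, another nuclear RNA, fell by 1.29 (SE 0.26, adjusted p = 0.0010). Erythroid genes were higher on day 8 together with the members: the 8 listed summed to 86.9 CPM on day 0, 238 and 266 CPM in the day 8 sets, 124 and 97.4 CPM on days 10 and 12 and 47.4 CPM by day 14, with 1 to 4 of them at 0 in a set, and edgeR called 4 of 5 tested higher on day 8. Of 6 mast cell and basophil genes tested, 3 were called higher and 1 lower, and the 8 listed summed to 423 CPM on day 0, 539 and 422 CPM in the day 8 sets and 222 to 334 CPM later. The 12 lymphoid genes summed to 720 to 1386 CPM and the 7 macrophage genes to 9.51 to 33.8 CPM. The 4 eosinophil genes summed to 514 CPM on day 0 and 26.4 to 210 CPM later, and 8 late neutrophil genes to 58.97 to 530 CPM.

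In single cells the median and both outer deciles of the members' level were higher on day 8 than on day 0. Each cell was thinned to 50000 gene reads and the reads of the 32 genes were summed. The median cell held 171.5 member reads on day 0 (lowest 74, highest 374), 348 and 287 in the day 8 sets (34 to 622 and 50 to 567), 223 on day 10 (23 to 553), 199 on day 12 (14 to 507) and 133 on day 14 (3 to 269). Above the day 0 median lay 95.6% of cells in the first day 8 set and 82.8% in the second, and so were 72% at day 10, 63.5% at day 12 and 29.8% on day 14. More member reads than in any day 0 cell were found in 39 of 90 and 16 of 93 day 8 cells, 8 of 93 at day 10, 1 of 85 at day 12 and 0 of 47 on day 14. Cells of a set share their source, so no p-value is given.

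The spread between cells was widest in the later sets. The coefficient of variation was 0.357 on day 0, 0.305 and 0.362 on day 8, 0.421 at day 10, 0.445 at day 12 and 0.579 on day 14, and the 90th percentile was 2.61, 2.1, 2.67, 2.94, 3.65 and 22.2 times the 10th. Fewer member reads than in the lowest day 0 cell were found in 1 and 2 cells of the day 8 sets, 5 at day 10, 8 at day 12 and 11 of 47 at day 14 (23.4%). These cells were poor in other genes too. On day 14 the 11 cells had a median of 2120 genes and 82.1% of their reads in Slc34a2 and CT010467.1, against 5730 genes and 30.6% in the other day 14 cells. The part of RNA content in this low end was not tested.

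**Figure D4:**
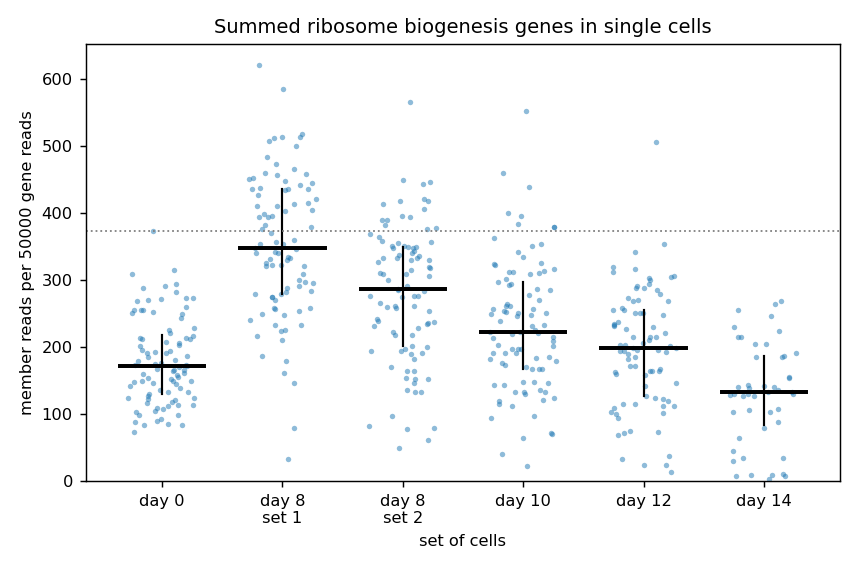
Reads of the 32 members per 50000 gene reads in each kept cell (points), with the median (thick horizontal line) and the quartiles (thin vertical line) of each set. The dotted line is the highest day 0 cell, 374 reads, and 39 of 90 cells of the first day 8 set lie above it.

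Members differed in how many cells carried them. The median cell had a read of 20 of the 32 genes on day 0, 27 and 26 on day 8, 24 at day 10, 23 at day 12 and 19 on day 14. Npm1 was read in every cell of days 0 to 12 and Ncl in all but 1. Bop1 was read in 65.2% of day 0 cells (exact 95% interval 54.6 to 74.9%), rather than 95.6% and 89.2% in the day 8 sets. For Nolc1 these shares were 72.8%, 97.8% and 87.1%, and for Tsr1 28.3%, 58.9% and 49.5%. Rrp12 was the scarcest on day 0, at 17.4%, against 50% and 45.2% on day 8 and 10.6% on day 14. On day 14 the median member was read in 53.2% of cells, but Wdr12 in 97.9% and Nip7 in 87.2%, against 92.4% and 65.2% at day 0. These shares were taken at 50000 gene reads per cell. Slc34a2 and CT010467.1 are part of that total, so fewer reads were left for other genes where their share was larger, above all on day 14. The intervals cover counting error only.

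Members differed in how closely they followed the others over cells. The Spearman correlation of a gene with the sum of the other 31, averaged over the 6 sets, was 0.73 for Ncl, 0.61 for Npm1, 0.56 for Nolc1, 0.55 for Nhp2 and 0.50 for Dkc1. It was 0.46 for Bop1 and Nop16 and 0.20 for Tsr1. The lowest were Polr1a at 0.12, Fbl at 0.13 and Wdr12 at 0.14. Polr1a and Fbl had few reads per cell, and in such sparse counts a low correlation says little. Wdr12 was read in 92.4% of day 0 cells and lay between 0.08 and 0.27 in the 6 sets. Its counts are uncertain because of its near-identical pseudogene Gm4879, and the part of that copy in the low correlation was not tested. Nop56, at 0.41 on average, was at 0.15 in the first day 8 set. All these points share their library and the reads of a cell, so the values are given as descriptions.

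Over cells, the members went with the rest of the pathway. With the 87 other ribosome biogenesis genes the correlation over cells was 0.72 on day 0, 0.86 and 0.79 on day 8, 0.90 at day 10, 0.84 at day 12 and 0.92 on day 14. With the list reads and the 2 abundant loci left out of each cell's total it was 0.69 to 0.86. This way of counting, also used below, thinned cells to 25000 remaining reads and dropped cells with fewer. It kept 36 of 47 cells on day 14 and 80 of 85 on day 12. The loss of cells and the change of totals cannot be told apart in its values. With Myc, Mycn, Max and Odc1 it was 0.25 to 0.65, and 0.18 to 0.47 with those reads left out. The replication genes gave 0.27 to 0.67 and 0.15 to 0.53, above 0 in all 6 sets both ways. The mitosis genes gave 0.08 to 0.52, but −0.18 to 0.16 once list reads and loci were left out, with 4 of 6 sets changing sign. The members also went with the reads of a cell (0.28 to 0.65) and against the share of Slc34a2 and CT010467.1 (−0.34 to −0.74). With the loci left out, the correlation with a cell's reads was 0.07 to 0.45. With a cell's gene reads per spike-in read it was 0.33 to 0.67, and 0.06 to 0.51 with the loci left out (0.44 and 0.51 in the day 8 sets). The part of depth and RNA content in the other correlations was not tested further. Erythroid genes gave −0.21 to 0.38 and mast cell and basophil genes −0.34 to 0.36.

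The relation to granulocyte, monocyte and stem cell genes differed in size and sign between sets. For the granule genes it was −0.03 on day 0, 0.22 and 0.42 on day 8, −0.07 at day 10, 0.21 at day 12 and 0.52 on day 14. With list reads and loci left out it was 0.26 and 0.43 on day 8 and −0.21 to −0.05 on the other days. In the second day 8 set, the tertile of cells richest in granule genes had a median of 338 member reads against 229 in the poorest tertile. The richest tertile was also higher in the first day 8 set (359.5 against 299), on day 12 (199 against 121.5) and on day 14 (141.5 against 35), while on day 10 (214 against 270) and day 0 (166 against 171.5) it was lower. Among single genes of this list, Prtn3 (proteinase 3) gave 0.29 and 0.47 in the day 8 sets, Ctsg (cathepsin G) 0.26 and 0.45, Mpo (myeloperoxidase) 0.17 and 0.36 and Elane (neutrophil elastase) 0.16 and 0.28. On day 0 these 4 lay between −0.07 and 0.02.

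The monocyte genes lay below 0 in all 6 sets once list reads and loci were left out. They were at −0.43 and −0.10 in the day 8 sets, −0.10 on day 0, −0.13 at day 10, −0.44 at day 12 and −0.28 on day 14. With all reads counted, day 14 stood at 0.43 and 3 of 6 sets were above 0. That day 14 value rests on 47 cells, and the −0.28 on the 36 with 25000 or more reads left. In the first day 8 set, the cells richest in monocyte genes had a median of 330.5 member reads against 412.5 in the poorest tertile. The richest tertile was also lower on day 12 (172 against 243) and, by less, on day 10. It was higher in the second day 8 set (307 against 239), on day 0 (181 against 168.5) and on day 14 (141 against 45). Ly6c2, a surface antigen of monocytes, gave 0.02 on day 0, −0.17 and 0.08 in the day 8 sets, and −0.20, −0.28 and 0.36 at days 10, 12 and 14. Lgals1 (galectin 1) ranged from −0.26 in the first day 8 set to 0.48 on day 14, with 0.33 on day 0, and Cst3 (cystatin C) from −0.34 to 0.29. Irf8, a transcription factor of monocyte fate, stayed within −0.12 and 0.16 except for 0.38 on day 14. These single genes were measured with all reads counted. Stem and progenitor genes gave 0.31 at day 0, 0.14 and −0.07 in the day 8 sets, and 0.34, 0.51 and 0.47 at days 10, 12 and 14, and with list and loci left out 0.32, 0.15, −0.06, 0.26, 0.42 and 0.05 in the same order. Cd34 (0.11 to 0.57) and Ifitm3 (0.17 to 0.53) were above 0 in all 6 sets and Ifitm1 in 5 of 6 (−0.02 to 0.35), whereas Meis1, a homeobox gene of stem cells, was below 0 in all 6 (−0.62 to −0.01).

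**Figure D5:**
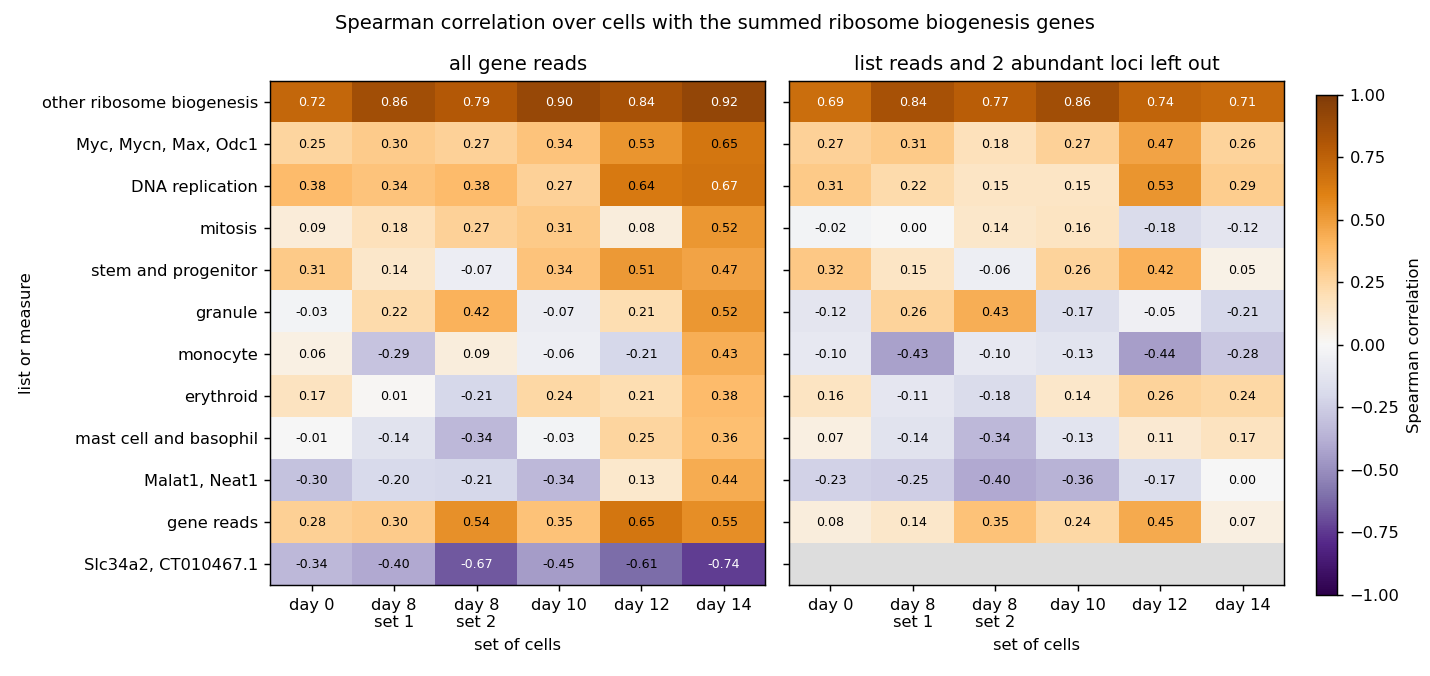
Spearman correlation over the cells of each set between the summed members and gene lists or cell measures, with all gene reads (left) and with the list reads and the 2 abundant loci left out of totals (right, grey where not defined). The other ribosome biogenesis genes stay at or above 0.69 in both panels, while mitosis, granule and monocyte values change sign between sets or panels. Values on the right that leave reads out use cells with 25000 or more reads left, 36 of 47 on day 14.

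Among 3565 genes read in at least 50% of cells of every set, those most like the members' sum over cells were Srm (spermidine synthase, mean of the 6 correlations 0.70), Ldha (lactate dehydrogenase, 0.66), Fkbp4 and Cnbp (0.63 each), C1qbp, Cct8 and Hsp90ab1 (0.62 each), Cacybp and Eif5a (0.61 each) and Pa2g4 (0.60). Srm lay between 0.54 on day 0 and 0.75 in the first day 8 set and on day 14. Of the 100 highest, 5 were among the 40 other ribosome biogenesis genes that met the same limit. The lowest were Slc34a2 (−0.55), Scn4b (−0.53), Map3k1 (−0.51), Foxl1 and Prdm16 (−0.50 each), Gm37531 (−0.49), Klhl20 and Gm15266 (−0.48 each) and Gm26670 and Cnnm4 (−0.47 each). Slc34a2 is a locus whose share is larger in cells with few genes, as given above. Others of the lowest genes had similar values over the sets, such as Scn4b at −0.32 to −0.78 beside Slc34a2 at −0.29 to −0.75. The part of RNA content in the place of any of these lowest genes was not tested.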

How the data were processed

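Libraries of single GMPs followed Smart-seq2 with Nextera XT tagmentation according to the labels, a method that does not mark strand. What the authors deposited are raw read counts by gene for every cell, in whole numbers. The submitters' processing notes name GSNAP, HTSeq 0.5.3p3 and mm10. PCR copies are counted, so intervals cover counting error only. Of 574 labelled cells, 573 had a column, and 1 column was not used. The 5 rows that name no gene held a median of 91.1% of a cell's reads and, with the 92 spike-in rows, were left out of totals and tests. No pair of cells had identical counts (0 pairs).

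Gene IDs were looked up in GENCODE vM21 (GRCm38). Counts of kept cells were summed per set, since cells are not replicates. Tests used edgeR 4.0.16 under R 4.3.3 on genes that passed filterByExpr by day and had reads in 10% or more of the kept cells of some set. The model gave each day its own mean, scaled by TMM, and quasi-likelihood F tests were adjusted after Benjamini-Hochberg (threshold 0.05). There was 1 residual degree of freedom against 50.9 prior ones, with common dispersion 0.0755, so other days were taken to vary like the day 8 sets. The SE of a fold change is its size over the root of F. The procedure was run on simulated counts drawn with this common dispersion in every set. Such a run cannot show whether calls hold if other days vary more than the day 8 sets. CPM use all gene reads, CPM per kb the merged exons, and copies are other genes with a transcript match of at least 95% over 500 bases (BLAST+ 2.17.0). Cells were thinned to 50000 reads at random for distributions, shares and correlations, and doublets were not searched for. DESeq2 1.42.0 served as an alternative, and Python 3.11.15 with scipy 1.17.1 and numpy 2.4.6 for the rest.

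Named were all 32 members, the 5 largest rises and falls among called genes of the wider pathway list on day 8, the 10 highest and lowest covarying genes, up to 4 genes per cell type list (those with the highest mean CPM), Myc, Mycn, Max, Odc1, Malat1 and Neat1. The members and lists were chosen with earlier results of these data known. Xist, Eif2s3y, Slc34a2, CT010467.1, Noc3l, the 6 further called pathway genes, overlapping genes and copies were named after their values were seen. Riok2 of the pathway list was not analysed here. The alternatives were DESeq2 size factors or its Wald test, all genes, all cells, only cells of 200000 or more reads and 2000 or more genes, thinned cells, no Slc34a2 and CT010467.1, each day 8 set left out, and, for the summed level, spike-in, TMM or per-cell scaling.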

Additional observations from a re-analysis of the deposited data

How the results depend on the processing

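Of the summed levels, day 8 kept its direction under all alternatives tried and lay between 0.72 and 0.96 (log2 over day 0) when a day 8 set was left out, and at 1.74 per spike-in read. Day 10 moved to 1.07 per spike-in read. The median cell's reads of all genes per spike-in read were also higher on days 8 and 10 than on day 0. Day 14, at −0.39, moved to −0.0967 with TMM factors, to −0.101 without Slc34a2 and CT010467.1, and to −0.63 with no cell filter. Day 12 stayed within 1 SD of the day 8 sets under all alternatives.

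The 6 members called on day 8 became 10 in cells with at least 200000 reads and 2000 genes and 0 in thinned cells, where 0 of all genes passed and the prior degrees of freedom fell from 50.9 to 1.87. Day 10 against day 0 gave 1 member without the cell filter. In the cells with the most reads, of which day 14 holds 4, day 14 against day 0 gave 4 members (1 higher and 3 lower) among 1717 genes called, and day 14 against day 12 gave 6 among 1952, of 14621 genes tested. The single call of day 14 against day 12 became 0 with the Wald test and 0 in thinned cells. Without 1 of the day 8 sets no residual degree of freedom is left, so fold changes were computed but no calls. Ltv1 on day 8 turned to −0.0185 without the first set (0.158 without the second) and to −0.146 in the cells with the most reads, where Rrn3 turned to −0.0676. The cause of these changes was not tested. Of the members' fold changes under alternatives, 313 were counted as the same, 14 no longer passed, 11 newly passed, 1 moved with no test and 3 reversed. The same means the same direction and side of the threshold. Where no adjusted p exists, as with a day 8 set left out, it means the same direction and within 1 SE of the main value. Of the correlations, 88 moved by less than 0.2, 12 by more with the same sign and 10 by more with the other sign.

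Correlations over cells, averaged over sets, turned from 0.24 to −0.00452 for mitosis genes and from 0.0018 to −0.246 for monocyte genes when list reads and the 2 loci were left out. In the cells with the most reads, over the 5 sets with enough of them, they were −0.0312 for mitosis, −0.248 for monocyte and −0.113 for granule genes (0.21 before), and 0.228 for replication genes (0.45 before). Within single sets, leaving out loci and list turned day 12 to −0.18 and day 14 to −0.12 for mitosis, day 12 to −0.051 and day 14 to −0.21 for granule genes, day 14 to −0.28 for monocyte genes, and days 12 and 14 to −0.17 and −0.0037 for Malat1 and Neat1. Leaving out loci and list also dropped cells with under 25000 remaining reads, so 36 of 47 cells stood on day 14 and 80 of 85 on day 12. The part of these lost cells in the turns was not tested. The cells with the most reads turned the second day 8 set to −0.098 and day 10 to −0.049 for mitosis, and day 12 to −0.53 for granule genes. No paired analysis was possible because only day 8 has more than 1 set. Depth limits Fbl, Polr1a, Tsr1 and Rrp12 most, and day 14 throughout.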
